A study of Mus musculus with 12 samples.

Results

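Metallothioneins and the genes that carry or sense zinc were followed in astrocytes of the developing mouse cerebellum. The members were the metallothioneins Mt1, Mt2 and Mt3, the zinc-sensing transcription factor Mtf1, the zinc exporter Slc30a1 and the metal importers Slc39a12 and Slc39a14. They were selected by symbol, 7 of the 24421 genes in the deposited table, and Mt2 was chosen for its drop at P7. All 7 passed the filter on low values, met where 3 or more libraries held a normalized count of 10 or above, as 15464 genes did.

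Cells expressing green fluorescent protein (GFP) were sorted from dissociated cerebellum of Aldh1l1-GFP reporter mice, in which the Aldh1l1 promoter drives GFP. Mice were on the C57/BL6J background, of both sexes, and received no treatment that the sources name. RNA was sequenced in 3 libraries at each of postnatal day 1 (P1), P7, P14 and P28, 12 in all. By their labels the groups differ in age only, and all carry the reporter. Whether a library came from 1 animal or a pool is not given in the sources used here, so p-values measure the spread between these libraries. Reads counted on genes numbered 6399499 to 14733985 per library. Values are normalized counts, that is, counts that the authors divided by a size factor of each library, and changes are log2 differences of (normalized count + 1) from limma, which understate the change of genes with low values.

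Metallothioneins are small cysteine-rich proteins that bind zinc and copper and buffer their free concentration. When free zinc rises, the zinc finger factor MTF-1 enters the nucleus and binds short DNA sequences called metal response elements, which stand before Mt1, Mt2 and Slc30a1. Zinc leaves the cytosol through the SLC30 (ZnT) transporters and enters it through the SLC39 (ZIP) transporters. In brain, Mt1 and Mt2 are known as genes of astrocytes that also respond to glucocorticoids and stress, and Mt3 is known as the brain form.

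Mt3, Mt2 and Mt1 lie in this order on the plus strand of chromosome 8, within 27721 bases (GRCm38). Mt3 spans 94152607 to 94154146, Mt2 94172664 to 94173568 and Mt1 94179082 to 94180327, and 5513 bases separate the end of Mt2 from the start of Mt1. The annotated antisense gene Gm45774, from 94170748 to 94173412 on the minus strand, overlaps Mt2. It is not listed in the table by this symbol, and whether the counting used strand is not stated, so its reads could not be told apart from those of Mt2. Mt1 and Mt2 transcripts share no run longer than 20 bases and Mt1 and Mt3 none longer than 27, both shorter than a read. The other members lie apart, with Mtf1 on chromosome 4 (124802104 to 124849800), Slc30a1 on chromosome 1 (191906767 to 191913247), Slc39a12 on chromosome 2 (14388316 to 14494977) and Slc39a14 on the minus strand of chromosome 14 (70303469 to 70351425).

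The sequences before Mt1 and Mt2 are shown because these 2 genes carry the main pattern below. They are the RefSeq windows on GRCm38.p6, plus strand, and stand before the start site; capitals mark the core of the metal response element, searched as TGCACNC and TGCGCNC on both strands.
Mt1, chr8:94178839-94179081: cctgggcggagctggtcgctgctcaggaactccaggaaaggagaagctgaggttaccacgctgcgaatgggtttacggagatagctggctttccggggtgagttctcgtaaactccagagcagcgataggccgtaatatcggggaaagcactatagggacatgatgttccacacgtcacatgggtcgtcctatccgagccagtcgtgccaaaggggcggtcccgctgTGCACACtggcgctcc
Mt2, chr8:94172368-94172617: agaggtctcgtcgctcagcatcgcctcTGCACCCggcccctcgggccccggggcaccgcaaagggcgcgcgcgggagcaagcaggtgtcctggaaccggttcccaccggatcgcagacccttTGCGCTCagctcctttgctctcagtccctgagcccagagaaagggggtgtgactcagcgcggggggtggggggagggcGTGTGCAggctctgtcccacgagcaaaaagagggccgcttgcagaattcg
The window of Mt1 held 1 match and that of Mt2 held 3, with 0 overlapping matches, and the Mt2 window lies within the span of Gm45774. For Mt1, 243 of the 250 bases searched are shown, up to the annotated start of the gene, and they hold the 1 match. Of 32851 promoters searched over the same 250 bases, 21.4% held at least 1 match, 5.18% at least 2 and 1.26% at least 3. Slc30a1 had 1 match, and Mt3, Mtf1 and Slc39a12 had 0 in this window. Between the annotated start and the start codon, Mt1 had 4 matches, Mt2 3 and Mt3 3. A match is a description of letters and not a measured binding site.

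All 12 astrocyte markers had reads in every library, and their summed normalized count differed with age. It was 78474 ± 10496 (SD, n = 3) at P1, 48776 ± 14564 at P7, then 207116 ± 19505 at P14 and 452287 ± 37053 at P28. Transcripts that mark other cell types were also present. The summed choroid plexus markers, of which the thyroxine carrier Ttr was the most abundant over all libraries, ranged from 1255 to 2730 at P1 and from 49667 to 131060 at P7. At P14 they stood at 112241, 65080 and 1353 in replicates 1, 2 and 3, so the third P14 library stood apart, and at P28 they ranged from 18074 to 185949. P1 replicate 2 held the highest endothelial, pericyte and meningeal sums of P1, at 3657, 6840 and 70403 against at most 1113, 2980 and 32946. P7 replicate 2 was the shallowest library, with the highest choroid plexus and endothelial sums of P7, at 131060 and 10402, and the lowest astrocyte sum, at 32122.

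**Figure D1:**
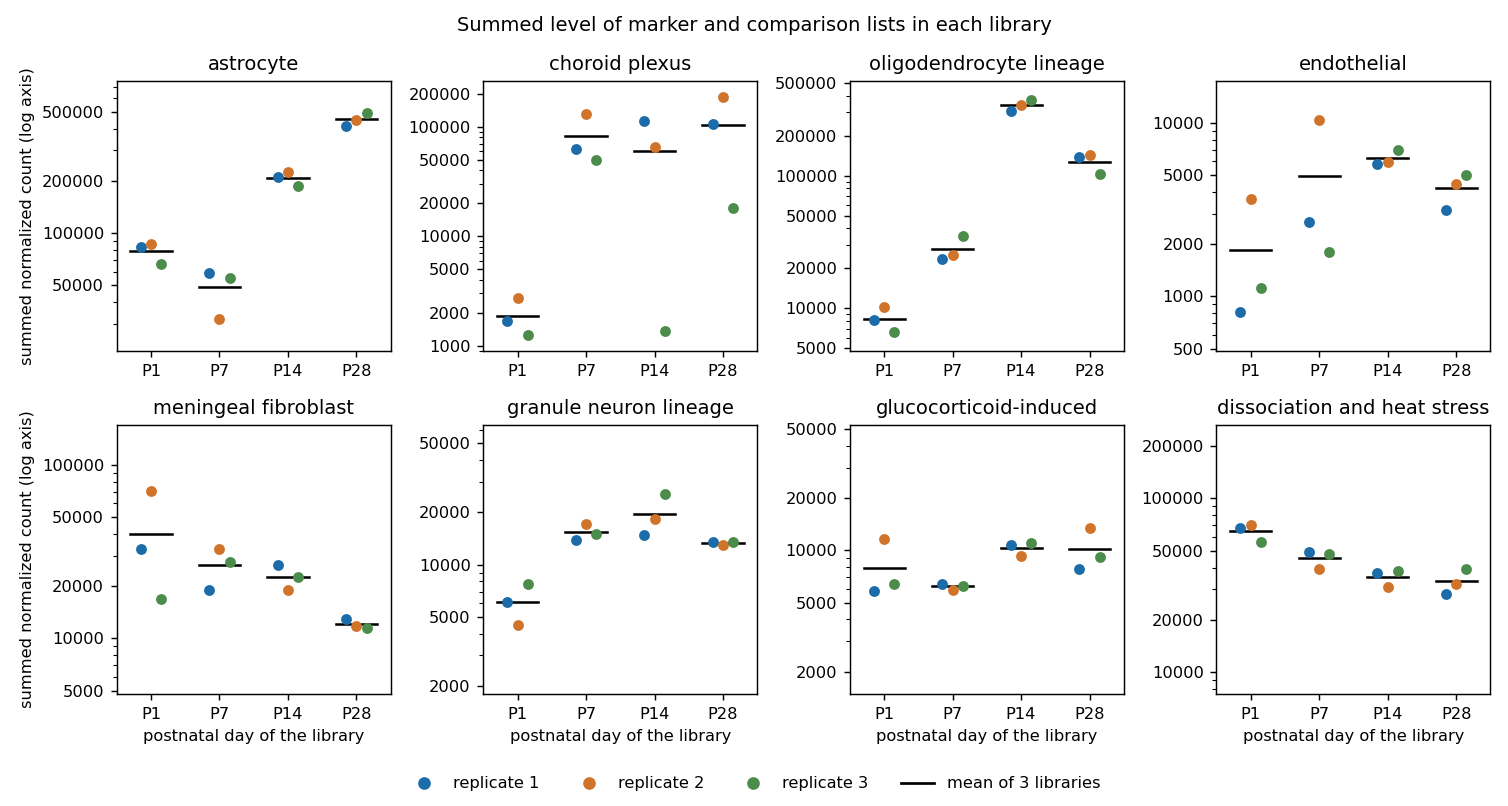
Summed normalized counts of 8 marker and comparison lists (y axis, log scale) in each library by postnatal day (x axis). Points are libraries, coloured by replicate, and bars are means of 3 libraries. The astrocyte sum was lowest at P7 (48776) and highest at P28 (452287), and the choroid plexus sum spread from 1353 to 112241 at P14.

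Mt1 fell at P7 and rose at both later steps. Its normalized counts were 993.6, 2204 and 1013 at P1, 389.3, 168.8 and 255.8 at P7, 1826, 2385 and 2854 at P14 and 4713, 7304 and 5012 at P28. The P7 libraries were the lowest of all and the P28 libraries the highest, and neither group overlapped with any other, while P1 and P14 overlapped. The mean fell by 2.34 on the log2 scale from P1 to P7 (SE 0.33, limma adjusted p = 0.000661), from 1404 to 271.3. It then rose 8.68-fold from P7 to P14, a log2 change of 3.17 (adjusted p = 1.35e-05). The drop and the rise passed the threshold under every setting tried, with a drop of -2.64 to -1.97 when single libraries were left out. The further rise from P14 to P28 was 2.41-fold (log2 1.27, adjusted p = 0.0225). That last call depended on single libraries, with adjusted p = 0.0908 without P14 replicate 1, 0.0576 without P14 replicate 2 and 0.0640 without P28 replicate 2. From P1 to P14 Mt1 did not pass the test (log2 0.83, adjusted p = 0.0988), but passed without P1 replicate 2 (log2 1.21, adjusted p = 0.0168).

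Mt2 had the same order of time points with a wider range. Its normalized counts were 1961, 4848 and 1846 at P1 and 644.9, 123.0 and 252.7 at P7. They were 7569, 7046 and 11599 at P14 and 12235, 16102 and 17352 at P28. The 4 groups did not overlap, and within P7 the highest library was 5.24 times the lowest. Mt2 was selected on its drop, so the values against P7 are a description without a test. The mean was 8.48-fold lower at P7 than at P1 (340.2 against 2885), 25.7-fold higher at P14 than at P7, and 44.8-fold higher at P28 than at P7. With single libraries left out, the log2 difference from P1 to P7 (-3.25) ranged from -3.87 without P7 replicate 1 to -2.68 without P7 replicate 2. Leaving out the same libraries gave 5.59 and 4.40 from P7 to P14 (4.96 with all) and 6.41 and 5.22 from P7 to P28 (5.79 with all). Among the contrasts that the choice did not use, Mt2 was 3.03-fold higher at P14 than at P1 (log2 1.71, SE 0.47, adjusted p = 0.0190) and 5.28-fold higher at P28 than at P1 (log2 2.54, adjusted p = 0.000919). The first of these was lost without P1 replicate 1, P1 replicate 3 or P14 replicate 3 (adjusted p = 0.0858, 0.0856 and 0.0862). The difference from P14 to P28 did not pass (log2 0.82, adjusted p = 0.264), although the libraries did not overlap.

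Mt1 and Mt2 moved together across the 12 libraries, with a Pearson r of 0.983 on log2 values, so the drop of Mt1 is not independent of the choice of Mt2. The ratio of their normalized counts, Mt2 over Mt1, was 1.82 to 2.20 at P1, 2.95 to 4.15 at P14 and 2.20 to 3.46 at P28. At P7 it was 1.66, 0.729 and 0.988 in replicates 1, 2 and 3. A level per kb depends on the length used: the merged annotated exons of Mt1 (1246 bases) cover its whole span, against 588 bases for Mt2, while the transcripts compared above are 549 and 511 bases long. Per kb of these transcripts, a length chosen after seeing the data, the ratio at P7 was 1.78, 0.783 and 1.06, so which gene was the more abundant in P7 replicate 2 rests on that choice. A length scales the ratio by the same factor in every library. With the merged exons, the ratio of Mt2 to Mt1 per kb was 4.24 ± 0.40 at P1, 2.38 ± 1.01 at P7, then 7.89 ± 1.41 at P14 and 5.84 ± 1.36 at P28 (SD, n = 3). Its range at P7, 1.54 to 3.51, lay below that at P1, 3.86 to 4.66, and that at P14, 6.26 to 8.79. Among all listed genes ranked per kb of merged exon within a library, Mt2 held rank 18 to 44 at P1, 169 to 1561 at P7, then 8 to 12 at P14 and 5 to 8 at P28. Mt1, Mt2 and Mt3 together took 479 ± 257 of every 1000000 reads counted on genes at P1, 71.3 ± 44.2 at P7, then 1083 ± 279 at P14 and 1722 ± 242 at P28.

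**Figure D2:**
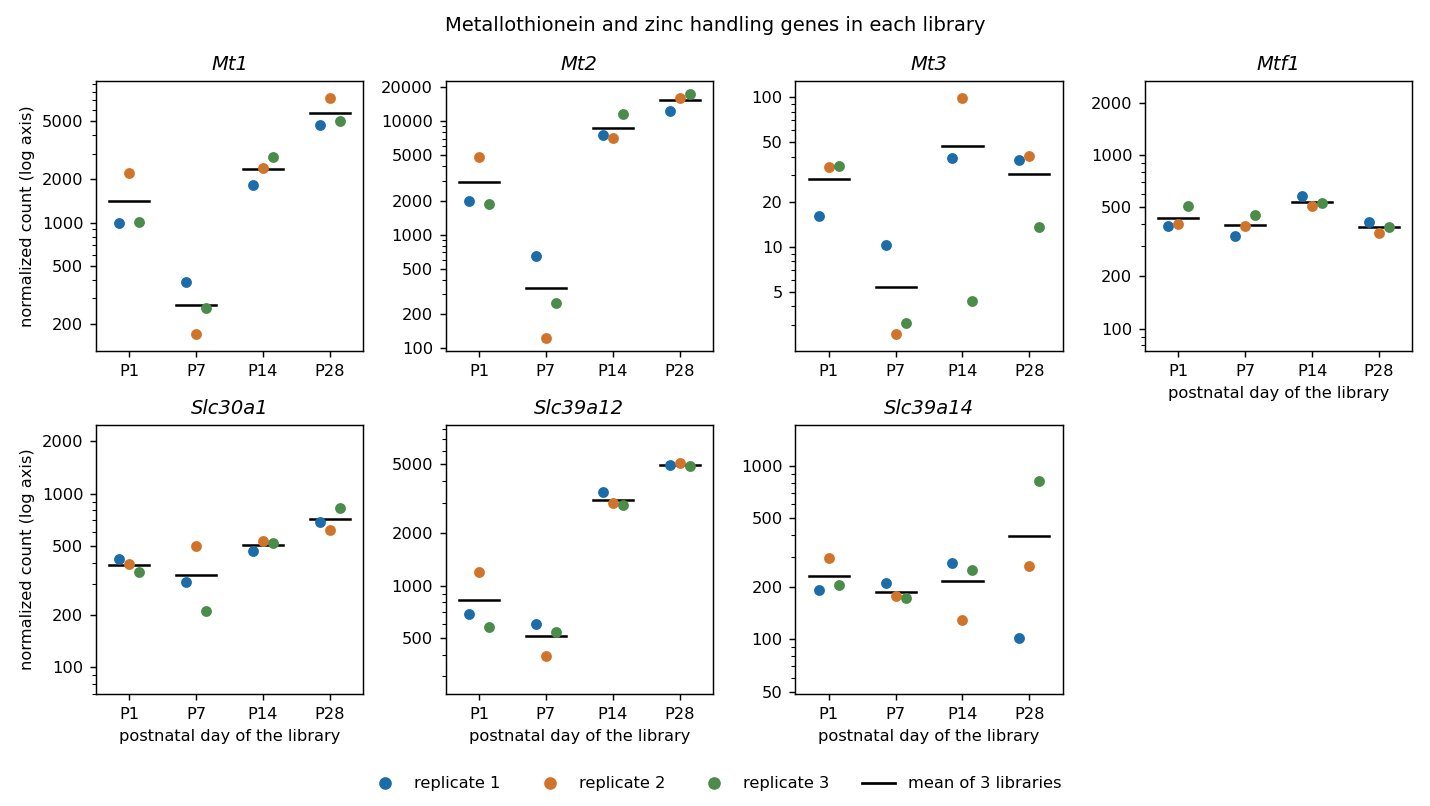
Normalized counts (y axis, log scale) of the 7 members in each library by postnatal day (x axis). Points are libraries, coloured by replicate, and bars are means of 3 libraries. Mt1 and Mt2 were lowest in the P7 libraries and highest in the P28 libraries, Mt3 lay between 2.62 and 98.4, and Slc39a12 rose between P7 and P14.

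Mt3 was scarce at every age. Its normalized counts were 16.0, 34.3 and 34.8 at P1, 10.4, 2.62 and 3.10 at P7, 39.2, 98.4 and 4.34 at P14 and 38.0, 40.1 and 13.5 at P28. These rest on 2 to 93 reads per library, and 2 P7 libraries and the third P14 library held 2 to 4 reads, near the floor of 3. Per kb of merged exon, the mean level of Mt3 at P28 was 28.7 against 25900 for Mt2 and 4556 for Mt1. The P7 libraries lay below those of P1, but the difference did not pass (log2 -2.33, SE 0.99, adjusted p = 0.203). At P14 the highest Mt3 value was 22.7 times the lowest. From P7 to P14 the change was 2.33 (adjusted p = 0.119), with 3.52 (adjusted p = 0.0134) without P14 replicate 3 and 1.41 (adjusted p = 0.402) without P14 replicate 2. DESeq2 on the recovered reads gave 3.12 for that step (adjusted p = 0.0132). From P7 to P28 the change was 2.37 (adjusted p = 0.0724), and it passed in DESeq2 (0.0415), without P14 replicate 3 (0.0276) and without P28 replicate 3 (0.0477).

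Mtf1, which encodes the zinc sensor that drives metallothionein transcription, stayed within a narrow range. It had normalized counts of 390.7, 401.5 and 511.1 at P1, 342.4, 388.7 and 453.5 at P7, 580.4, 511.0 and 528.9 at P14 and 410.7, 357.4 and 386.8 at P28. The P14 libraries were higher than those of P7 and P28 without overlap. Neither step passed the test, at a log2 change of 0.46 (SE 0.22, adjusted p = 0.162) and then -0.49 (adjusted p = 0.146). Scaled by library totals alone, the second was -0.72 with an adjusted p of 0.0417. Mtf1 changed by -0.14 from P1 to P7, where Mt1 fell (adjusted p = 0.847).

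Slc30a1, which encodes the plasma membrane zinc exporter ZnT1 and is another known target of MTF-1, was highest at P28. Normalized counts were 417.7, 393.0 and 353.6 at P1, 311.3, 498.6 and 209.3 at P7, 464.9, 531.1 and 518.0 at P14 and 683.9, 620.4 and 830.3 at P28. The P28 libraries lay above all others, and the P7 libraries overlapped with both P1 and P14. It was 2.09-fold higher at P28 than at P7 (log2 1.14, SE 0.28, adjusted p = 0.00516) and 1.83-fold higher than at P1 (log2 0.87, adjusted p = 0.0275). Both calls were lost when libraries were scaled by totals alone, with log2 0.65 (adjusted p = 0.0737) and 0.43 (adjusted p = 0.237). The second was also lost when any P1 library or P28 replicate 3 was left out (adjusted p = 0.0548 to 0.0859). From P1 to P7 the change was -0.28 (adjusted p = 0.711). From P7 to P14 it was 0.66 (adjusted p = 0.118), and 0.98 with an adjusted p of 0.0237 without P7 replicate 2.

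Slc39a12, which encodes the plasma membrane zinc importer ZIP12, rose steeply in the second week. Its normalized counts were 686.0, 1205 and 577.0 at P1, 598.0, 393.9 and 540.3 at P7, 3441, 2986 and 2921 at P14 and 4975, 5072 and 4878 at P28. P1 and P7 overlapped, and each of P14 and P28 stood above every earlier library. The rise from P7 to P14 was 6.10-fold (log2 2.63, SE 0.24, adjusted p = 3.96e-06) and passed under every setting tried. From P1 to P7 the change was -0.63 (adjusted p = 0.138), and from P14 to P28 it was 0.68 (adjusted p = 0.0720). The last of these passed in DESeq2 (adjusted p = 0.0497), in a fit of only P14 and P28 (0.0305) and without P1 replicate 2 (0.0222). Against P1, it was 3.79-fold higher at P14 (adjusted p = 3.81e-05) and 6.05-fold higher at P28 (adjusted p = 1.44e-06).

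Slc39a14, which encodes ZIP14, an importer of zinc, iron and manganese, passed the test in none of the 6 limma contrasts. Its normalized counts lay between 129.1 and 296.5 at P1, P7 and P14. At P28 they were 102.3, 266.6 and 816.8, so the highest was 7.98 times the lowest. The log2 change from P14 to P28 was 0.44 (SE 0.56, adjusted p = 0.642), and it turned to -0.32 without P28 replicate 3.

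Counted over the members, with Mt2 left out of every contrast against P7, 0 of 6 rose and 1 of 6 (Mt1) fell from P1 to P7. Over all genes tested, 3.47% rose and 4.24% fell at this step. From P7 to P14, 2 of 6 (Mt1 and Slc39a12) rose and 0 fell, where 10.8% of all genes rose and 10.0% fell. From P14 to P28, 1 of 7 (Mt1) rose and 0 fell, with 5.68% of all genes rising and 8.76% falling. From P1 to P28, 4 of 7 rose (Mt1, Mt2, Slc30a1 and Slc39a12) and 0 fell, against 14.6% and 20.0% of all genes. From P1 to P14, 2 of 7 were called (Mt2 and Slc39a12) where 20.4% of all genes were called in either direction. From P7 to P28, 3 of 6 were called (Mt1, Slc30a1 and Slc39a12) where 39.2% were. The members were chosen with results of these libraries known, and contrasts that share a time point share its libraries. Scaled by library totals alone, the median change of all genes moved from -0.24 to -0.67 from P1 to P28, from -0.086 to -0.35 from P7 to P14 and from -0.12 to -0.35 from P14 to P28.

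Levels per 1000 normalized counts of the 12 astrocyte markers were computed because these markers changed with age as well. From P1 to P7, where 4.24% of all genes fell and 3.47% rose, 7 of the 12 fell, among them Aldh1l1, whose promoter drives the reporter, and 2 rose (Gfap and S100b). From P7 to P14, 10 rose where 10.8% of all genes did, and from P14 to P28, 9 rose where 5.68% did. In these bulk libraries fewer astrocytes and less RNA per astrocyte cannot be told apart. Per 1000 marker counts, Mt1 stood at 17.6 ± 7.09 at P1, 5.50 ± 0.99 at P7, then 11.5 ± 3.40 at P14 and 12.6 ± 3.23 at P28 (SD, n = 3). Mt2 stood at 35.9 ± 17.8, 6.44 ± 3.89, 43.2 ± 16.7 and 33.5 ± 3.63. Against this sum the P7 libraries lay below all others for both genes, with at most 6.58 for Mt1 and 10.9 for Mt2 against at least 8.70 and 23.7 elsewhere, and P1, P14 and P28 overlapped. That order depended on the marker. Against each of the 12 markers alone, chosen after seeing the data, the P7 libraries lay below all others with 7 markers for Mt1 and with 9 for Mt2. Per 1000 counts of Aldoc, an enzyme gene of glycolysis, Mt1 stood at 147.5, 134.1, 117.7 and 103.7 and was lowest at P28, and its P7 libraries overlapped with P1. Against S100b, Mt1 was also lowest at P28, at 439.5 against 507.5 at P7. Against Aldh1l1, the P7 libraries of Mt1, at 171.9 to 196.1, overlapped with P1 as well. Against Aldh1l1 and Aldoc the P7 and P1 libraries of Mt2 overlapped too. The water channel gene Aqp4, the most abundant marker at P7, went from a mean of 9686 at P1 to 14593, and without it the P7 libraries reached 9.37 for Mt1 and 15.5 for Mt2 against at least 10.0 and 26.8 elsewhere. Slc39a12 stood at 10.3 ± 3.18, 10.7 ± 1.34, 15.1 ± 1.64 and 11.1 ± 1.02, and P1, P7 and P28 overlapped. Its P14 libraries, at 13.3 to 16.4, overlapped with P1 and lay above P7 and P28 (up to 12.3 and 11.9). For Slc39a12, too, the relation of P7 to P1 depended on the marker. Against single markers, the P7 mean ran from 0.229 times that of P1 (S100b) to 3.10 times (Aldoc), and with Gfap and Aqp4 the P7 libraries lay below all others. With 3 libraries against 3, a 2-sided exact permutation test cannot reach a p below 0.1. These ratios were not tested.

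**Figure D3:**
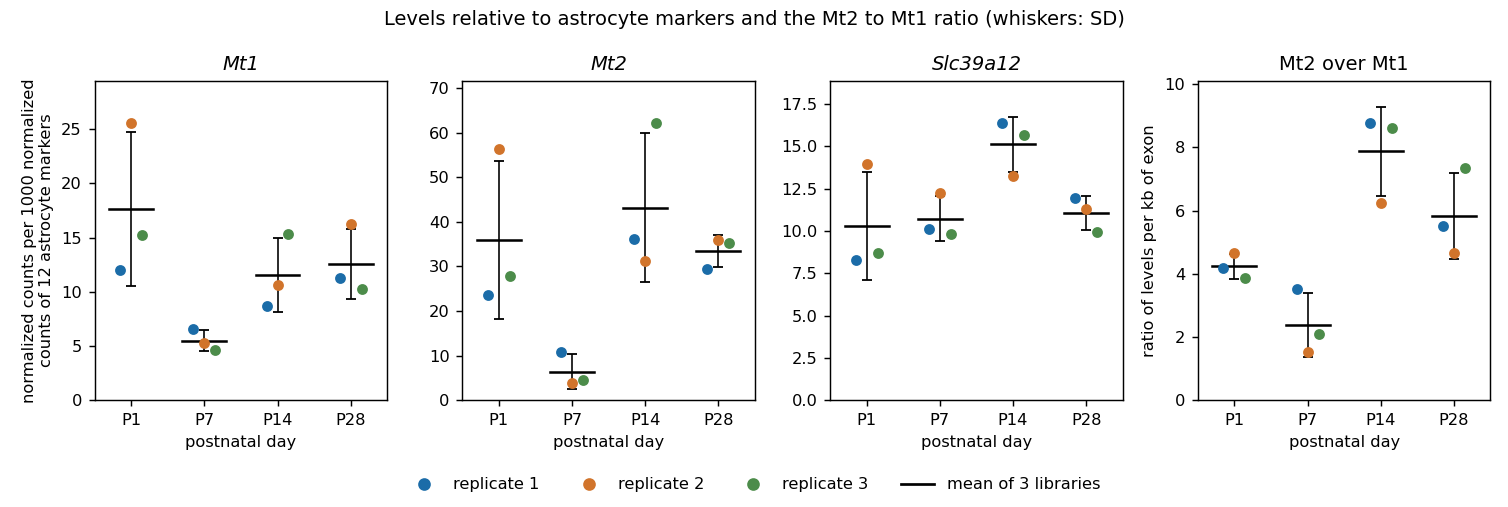
Mt1, Mt2 and Slc39a12 per 1000 normalized counts of 12 astrocyte markers (first 3 panels) and the ratio of Mt2 to Mt1 per kb of merged exon (last panel) by postnatal day (x axis). Points are libraries, coloured by replicate, bars are means and whiskers are SD (n = 3). Mt1 and Mt2 were lowest at P7, at 5.50 and 6.44, while Slc39a12 stood at 10.3 at P1 and 10.7 at P7, and the ratio was lowest at P7 (2.38) and highest at P14 (7.89).

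Marker sums of other cells also differed between ages, in directions that varied by list and step. The choroid plexus sum was 1885 at P1 and 81205 at P7, with 5 of 11 markers called higher, where 3.47% of all genes rose, and Prr32 and Aqp1 without a read in some libraries. The 5 include Prr32, which held 0 reads at P1, so its rise is a description, and Kcne2, which held 20 reads there. Otx2, the most abundant of the list in the P1 libraries, had means of 1240 at P1 and 796.1 at P7 and was not called. The oligodendrocyte lineage sum was 8339 and 28028 at these ages, and the granule neuron lineage sum 6109 and 15324 (most abundant gene Zic1). At P14 the oligodendrocyte lineage sum was 339208, with 7 of 10 markers called higher than at P7 and Pdgfra lower, where 10.8% of all genes rose and 10.0% fell, and Mbp was its most abundant gene over all libraries. From P14 to P28, where Mt1 rose, this sum went to 127715 with 0 markers called higher and 7 of 10 called lower, where 8.76% of all genes fell. The ependymal sum was 1604 at P1 and 626.5 at P7, and 1 of its 8 markers was called, Foxj1, its most abundant gene, which fell (adjusted p = 0.0478), where 4.24% of all genes fell. Their part in the values of Mt1, Mt2 and Slc39a12 was not tested. The other sums at P1 and P7 were 1860 and 4959 for 9 endothelial markers (most abundant Flt1), 3994 and 3755 for 6 pericyte markers (Vtn) and 40050 and 26469 for 7 meningeal markers (Igf2). They were 1484 and 1934 for 8 microglia markers (Csf1r), 1313 and 2096 for 6 Purkinje cell markers (Itpr1) and 53.1 and 61.2 for 5 red blood cell genes, of which the 4 globin genes were at 0 and Alas2 held the reads. Whether the counting could give reads to the globin genes is not known, so their 0 does not measure red blood cells. From P1 to P14, 7 of 9 endothelial markers were called, all of them higher (sum 6241 at P14), where 20.4% of all genes were called. Between P14 and P28, 2 endothelial and 3 of 6 pericyte markers were called lower, where 8.76% of all genes were, and their sums went to 4198 from 6241 and to 2907 from 6023.

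The remaining zinc transporters, with Mt4 added, numbered 22 genes, of which 19 were tested, and Slc30a2, Slc30a8 and Mt4 were under the filter. Of these, 0 rose and 1 fell from P1 to P7, 0 rose and 2 fell from P7 to P14, and 0 rose and 1 fell from P14 to P28. The 2 include Slc30a3, which passed the filter only through P1 and P7 libraries, so its fall is a description. The 1 from P14 to P28 is Slc39a2, which reached 10 in no P28 library, so its fall is a description too. Of all genes tested, 3.47% rose and 4.24% fell at the first step, 10.8% and 10.0% at the second and 5.68% and 8.76% at the third. At an unadjusted p under 0.05, limma had 1, 0 and 2 of the list higher at the 3 steps, and DESeq2 called 2 higher and 2 lower at the third. The median log2 changes were -0.11, 0.26 and -0.078, beside 0.037, -0.086 and -0.12 over all genes tested. Their summed normalized count was 8706 ± 777 at P1, 8576 ± 753 at P7, then 8430 ± 833 at P14 and 9280 ± 571 at P28 (SD, n = 3).

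Among the importers, Slc39a1 (ZIP1), found at the cell surface, fell from P1 to P7. Its normalized counts were 952.4, 956.0 and 745.1 at P1 and 433.1, 420.1 and 451.9 at P7, without overlap (log2 -1.01, SE 0.26, adjusted p = 0.0287). That call was lost when P1 replicate 1 or 2 or any P7 library was left out (adjusted p = 0.0821 to 0.114). The means of Slc39a1 at P14 and P28 were 554.1 and 965.0, and it was called higher at P28 than at P7. Slc39a6 (ZIP6) fell from P7 to P14, from 871.1, 812.7 and 1039 to 317.7, 444.3 and 341.0 (log2 -1.31, SE 0.32, adjusted p = 0.00833). Slc39a2 (ZIP2) was low, at 60.4, 10.6 and 98.8 at P14 and 0, 2.36 and 0 at P28, where 1 library held 2 reads. It passed the filter only through P1, P7 and P14 libraries, so its fall is a description. Slc39a10 (ZIP10), the most abundant of the list, did not pass at any step, with a mean of 1558 at P1, 2583 at P7, then 2156 at P14 and 1636 at P28. Among the SLC30 genes, Slc30a3 (ZnT3), the vesicular zinc transporter of glutamatergic neurons, was at 27.9, 14.4 and 29.5 at P7. It held a single read in the 3 P14 libraries and 0 at P28, and this fall is a description, as given above. Slc30a10 (ZnT10), a manganese exporter, had means of 1396, 1009, 1162 and 1378 and Slc30a9 of 820.2, 832.5, 1018 and 963.4, and neither passed at any step.

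**Figure D4:**
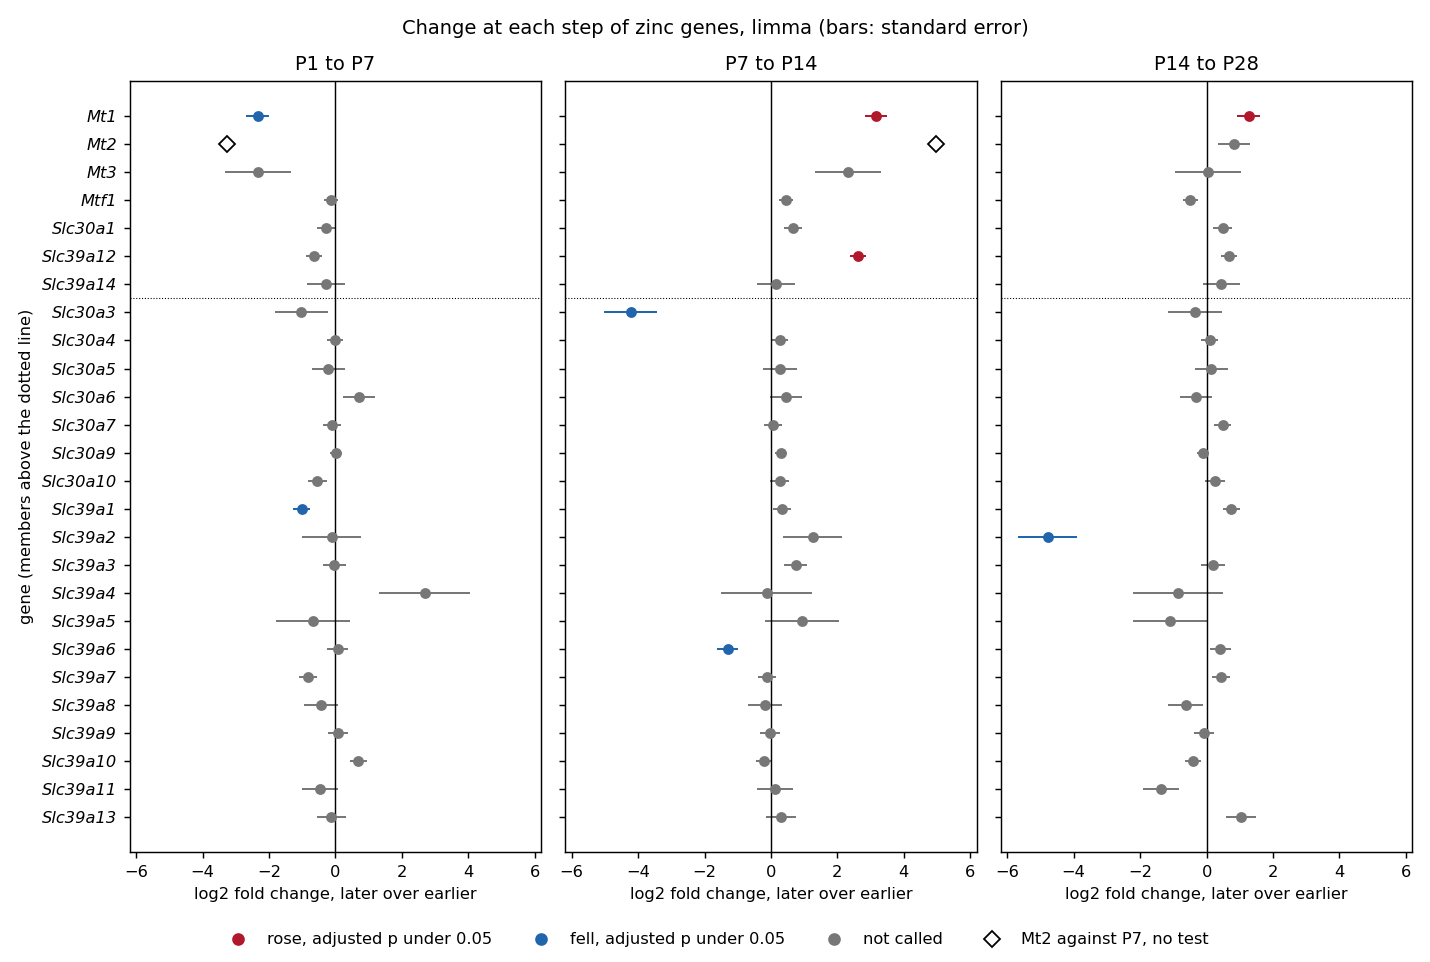
Log2 fold change from limma (x axis, later over earlier time point) of the 7 members and the 19 other tested zinc transporter genes (y axis) at the 3 consecutive steps. Bars are standard errors, colours mark genes with an adjusted p under 0.05, and open diamonds mark Mt2 against P7, which was not tested. The coloured falls of Slc30a3 from P7 to P14 and of Slc39a2 from P14 to P28 are descriptions. Mt1 fell by 2.34 and rose by 3.17 at the first 2 steps, and of the 19 genes outside the members 0 were called higher by limma at the 3 steps.

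The genes whose log2 values were most like those of the members across the 12 libraries are given as a description, since all genes share the libraries and their composition. For Mt2 these were Folh1 (Pearson r 0.994), the glutamine synthetase gene Glul (0.988), Mt1 (0.983), the alpha-tocopherol transfer protein gene Ttpa (0.979) and Ndrg2 (0.979). Folh1 had means of 231.5 at P1, 69.6 at P7, then 487.9 at P14 and 683.6 at P28, and Glul had 6921, 2468, 10926 and 15458. For Mt1 they were Ndrg2 (0.984), Igsf11 (0.984), Ttpa (0.983), Mt2 (0.983) and Ppap2b (0.981). Slc39a12 was most like Htra1 (0.996), Cyp2d34 (0.992), Cmtm5 (0.991), Atp1b2 (0.989) and the sphingosine 1-phosphate receptor gene S1pr1 (0.989). Cyp2d34 was near the floor at P1 and P7, with means of 1.65 and 0.524 against 16.4 at P14 and 27.2 at P28. Htra1 had means of 456.8, 305.6, 2222 and 3682, with a far smaller gap between P1 and P7 than between P7 and P14. Mt3 had lower values, led by the calcium channel gene Orai1 (0.910), Inafm2 (0.872), Nudt9 (0.845), Surf4 (0.840) and Syde1 (0.829). Among the members, Slc39a12 had an r of 0.918 with Mt2 and 0.913 with Mt1, Slc30a1 had 0.702 and 0.731, and Mtf1 had 0.194 and 0.0800.

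Glucocorticoid-induced genes were read beside Mt1 and Mt2, which glucocorticoids are known to induce. Of 12 genes, 0 rose and 1 fell in limma from P1 to P7, the clock gene Per1, from 1663 to 444.0 (log2 -1.87, SE 0.37, adjusted p = 0.00607), where 4.24% of all genes fell, and DESeq2 called 2 lower. From P7 to P14, 3 rose and 0 fell in limma, where 10.8% of all genes rose and 10.0% fell, and DESeq2 called the same number higher and 1 lower (Fkbp5). These were Tsc22d3, which encodes the leucine zipper protein GILZ (134.0 to 815.4, adjusted p = 0.000177), the transcription factor Klf9 (653.5 to 1695, adjusted p = 0.00184) and the sulfotransferase gene Sult1a1 (132.2 to 429.9, adjusted p = 0.0148, lost without P7 replicate 1 or 3 or P14 replicate 2). The phosphatase gene Dusp1, the most abundant of the list, was at 2041, 2446 and 4235 at P1, P7 and P14 (adjusted p = 0.718 and 0.0947). From P1 to P14 Dusp1 was called higher, as were Klf9 and Tsc22d3, where 20.4% of all genes were called. From P14 to P28, 0 were called in limma, DESeq2 or edgeR, and in limma 1 rose and 1 fell at an unadjusted p under 0.05. Fkbp5, named after its values were seen, encodes a co-chaperone of the glucocorticoid receptor and had means of 376.5 at P1, 265.1 at P7, then 68.9 at P14 and 36.0 at P28. It was called lower at P28 than at P1 (adjusted p = 0.00253) and than at P7 (adjusted p = 0.00485). From P1 to P28, Per1 was also called lower and Klf9 and Tsc22d3 higher, where 14.6% of all genes rose and 20.0% fell. From P7 to P28, Errfi1, Klf9 and Tsc22d3 were called higher and Fkbp5 alone lower, where 39.2% of all genes were called. The list's median changes at the 3 steps were -0.46, 0.60 and -0.10, beside 0.037, -0.086 and -0.12 over all genes.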

How the data were processed

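RNA of GFP-sorted cerebellar cells was sequenced in 12 libraries, grouped by the age in the labels. The authors used STAR for alignment to mm10, counted reads over transcripts from UCSC and normalized them with DESeq2, and the submitters' notes list STAR 2.5.0a and DESeq2 1.30.1. The deposited values are a signal (counts over 1 size factor per library), and whole reads were recovered for 100% of the values (tolerance 0.1). All 12 column names carry P28, so time points rest on the labels, and 0 columns were left unmapped.

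Genes with at least 10 in at least 3 libraries were tested with limma 3.58.1 (R 4.3.3) on log2(value + 1), in 1 fit of all libraries, and called at a Benjamini-Hochberg adjusted p under 0.05. edgeR 4.0.16 and DESeq2 1.42.0 on recovered reads, other scalings, filters and pseudocounts, a replicate block and leaving out each library served as alternatives. On simulated data with 200 genes changed by a log2 of 2 from P1 to P7, limma called 135 of them and 8 unchanged genes, over 15422 genes. All pairs of libraries within an age differed by more than sampling noise. Levels per kb use GENCODE M21 exons. A gene at 0 reads can hold up to 3 at 95% confidence, for counting error only.

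Members and lists were chosen with earlier results of these data known. Named genes were the members; other zinc genes called at a step or among the 3 most abundant; of other lists the 2 most abundant and, for copper and glucocorticoid genes, those called at the first 2 steps; the 5 closest patterns; and neighbours on the chromosome.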

Additional observations from a re-analysis of the deposited data

How the results depend on the processing

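Leaving out single libraries moved the number of genes called from 1191 to between 645 (without P7 replicate 2) and 1534 from P1 to P7, from 2232 to between 1233 (without P14 replicate 3) and 2807 from P14 to P28, and gave 2155 to 3933 from P7 to P14 (3227 with all libraries) and 3851 to 5739 from P1 to P28 (5350 with all). From P1 to P7, 1797 were called by DESeq2, 2820 in a fit of only these time points and 2198 at a threshold that reads the study's as an unadjusted p under 0.05 and a log2 change over 0.75. edgeR on the recovered reads called 1090, 3046 and 1977 at the 3 steps. From P14 to P28, 766 were called with only these time points and 3725 at that threshold. Members called from P1 to P7 went from 1 to 2 (Mt1 and Mt3) with only these time points and at that threshold, and stayed 1 with any library left out. From P14 to P28 they went from 1 to 2 with library totals alone, DESeq2 or only these time points, and ranged from 0 to 2 with single libraries left out.

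With library totals alone, rising against falling genes went from 1676 and 1551 to 1203 and 2471 from P7 to P14, from 878 and 1354 to 454 and 1941 from P14 to P28 and from 2264 and 3086 to 1366 and 5187 from P1 to P28. With at least 10 in every library they were 862 and 662 from P14 to P28 and 2061 and 1576 from P1 to P28. Direction turned in 4 named values, none of them called, when 1 library was left out: Slc39a14 from P14 to P28 (0.44, range -0.32 to 1.17), Slc39a10 from P7 to P14 (-0.20, range -0.38 to 0.083), Slc30a10 from P7 to P14 (0.26, range -0.089 to 0.53) and Nup93 from P1 to P7 (-0.066, range -0.32 to 0.13). The cause was not tested.

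The replicate numbers were not shown to pair the libraries: deviations of same-numbered libraries correlated at -0.029 to 0.139, over 0.1 in 1 of 18 pairs, although 10 of 12 libraries correlated best with their own number. With the replicate block, 1163, 3153, 2136 and 5334 genes were called from P1 to P7, P7 to P14, P14 to P28 and P1 to P28. Not every named value was followed through the alternatives. Among those that were, only Nup93 from P7 to P14 changed its call with the block (adjusted p = 0.0431). Depth limits Mt3, Mt4, Slc30a2, Slc30a3, Slc30a8, Slc39a2 and Cyp2d34, which held few reads or none in some libraries.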

Other observations

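Copper is also bound by metallothioneins. Of 11 copper handling genes, 10 were tested and 2 fell from P1 to P7, with 0 called in limma from P7 to P14 or from P14 to P28. At an unadjusted p under 0.05 these were 0 and 2, and DESeq2 called 0 and 1 and edgeR 0 and 0. Of all genes tested, 4.24% fell at the first step, 10.8% rose and 10.0% fell at the second, and 5.68% rose and 8.76% fell at the third. Atp7b, a copper-transporting ATPase, was at 391.3, 332.2 and 330.9 at P1 and 137.7, 57.6 and 72.1 at P7 (log2 -2.06, SE 0.56, limma adjusted p = 0.0354, and 0.0506 in edgeR). Cp, which encodes the ferroxidase ceruloplasmin, had means of 1104 and 510.3 (log2 -1.02, adjusted p = 0.0404, and -0.65 with 0.176 without P1 replicate 2). Both calls were lost, among others, when P7 replicate 2 or 3 was left out. The 2 most abundant genes of the list, the importer gene Slc31a1 and the ATPase gene Atp7a, did not pass at any of the 3 steps. From P1 to P28, Slc31a1 and Atox1 were called higher and Atp7b lower, where 14.6% of all genes rose and 20.0% fell. Atp7b was also called lower from P1 to P14, where 20.4% of all genes were called.

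The 12 genes of cell dissociation and heat stress had a summed normalized count of 64701 ± 7327 (SD, n = 3) at P1, of which Egr1 made up 37345, against 45484 ± 5533 at P7, 35308 ± 3851 at P14 and 33257 ± 5609 at P28. From P1 to P7, 2 of 12 fell (Egr1 and Fos), where 4.24% of all genes fell. From P7 to P14, 3 rose (Hspa1a, Hspa1b and Junb) and Hsp90aa1 fell, beside 10.8% and 10.0% of all genes. From P14 to P28, 3 rose (Hsp90aa1, Hspa1a and Hspa1b) and 5 fell (Atf3, Egr1, Fos, Fosb and Junb), beside 5.68% and 8.76%. The inducible heat shock gene Hspa1a, named after its values were seen, had means of 157.9 at P1, 104.0 at P7, then 319.7 at P14 and 1004 at P28. Its near-identical copy Hspa1b had 61.5, 40.7, 138.2 and 435.0, and reads may be split between them. Egr1 and Hsp90aa1 were the most abundant of the list.

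The nearest expressed genes on either side of the metallothioneins were Bbs2 and Nup93. From P1 to P7 Bbs2 changed by -0.45 (adjusted p = 0.617) and from P7 to P14 by 1.06 (adjusted p = 0.0575, and 0.0228 in DESeq2), and it was called higher at P28 than at P1 (1.14, adjusted p = 0.0289) and than at P7 (1.59, adjusted p = 0.00390). Nup93 changed by -0.066 (adjusted p = 0.950) and by -0.76 (adjusted p = 0.0502, and 0.0261 in DESeq2) at these steps, and was called lower at P28 than at P1 (-1.09, adjusted p = 0.00491) and than at P7 (-1.02, adjusted p = 0.00622), and at P14 than at P1 (-0.82, adjusted p = 0.0353). Ogfod1, the next gene beyond Bbs2, was called higher from P7 to P14 (0.90, adjusted p = 0.0302) and from P7 to P28 (1.22, adjusted p = 0.00281). Slc39a13, named after its values were seen, was the 1 gene of the other zinc list that rose from P1 to P28 (240.2 to 626.4, adjusted p = 0.0496), while Slc30a3, Slc39a2 and Slc39a11 fell, 1 and 3 of 19 where 14.6% of all genes rose and 20.0% fell. Slc39a13 was at 182.7, 322.9 and 215.1 at P1 and 700.0, 240.6 and 938.5 at P28, which overlapped. The 3 that fell include Slc30a3 and Slc39a2, whose falls are descriptions, as given above.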
